A study of Mus musculus with 22 samples.

Results

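Liver RNA was compared between mice given the human ST3GAL5 cDNA behind a ubiquitous promoter and mice given the same cDNA behind a neuronal promoter. The vector rAAV9.CB.ST3GAL5, called v1 here, uses the CB (chicken beta-actin) promoter, which works in most cell types. The vector rAAV9.Syn1.ST3GAL5.miR122BS, called v2 here, uses the Syn1 promoter, a neuronal promoter, and its transcript carries binding sites for miR-122, the abundant microRNA of hepatocytes. The groups were taken from the treatment named for each sample, and they hold 7 of the 22 livers of the series, 3 with v1 and 4 with v2. The livers came from male WT C57BL/6 mice that were injected intravenously on postnatal day 1 and killed 36 hours later. Both vectors share the AAV9 capsid and the transgene, and all the mice kept their own St3gal5. The livers of 4 mice given AAV9.empty, the empty capsid, and of 4 mice given PBS serve as context. Promoter and miR-122 sites changed together, so their parts cannot be told apart, and the transcript of the human transgene and the number of vector genomes in each liver were not analysed here. Nothing in the labels states whether the pups of a group shared a litter, so p-values reflect only how much these particular livers vary.

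ST3GAL5 is GM3 synthase, which adds sialic acid to lactosylceramide and so makes GM3, the ganglioside from which most complex gangliosides of the brain are built. Hepatocytes take up AAV9 from the blood readily, and a transgene with a ubiquitous promoter is therefore expressed in liver after intravenous delivery. In an injured or inflamed liver, NF-kB and STAT3 signalling raise chemokines and acute-phase proteins, AP-1 factors such as Fos and Jun appear early, and genes of hepatocyte metabolism are often lowered.

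The 7 libraries held 17164502 to 22769658 expected counts (estimated reads per gene). CPM values are counts at a common library total, adjusted between libraries by TMM (trimmed mean of M-values), and fold changes are v1 over v2 from edgeR's quasi-likelihood test with Benjamini-Hochberg adjustment over all genes tested. The livers of a group differed from each other by more than counting noise, with a median chi-square per gene of 1.43 to 6.59 between livers of 1 group, against 0.455 for pure sampling. The male label held in all 7 livers, with the Y-linked gene Ddx3y at 38.9 to 47.5 CPM in v1 livers, against 34.6 to 39.9 CPM in v2 livers. The predicted gene Gm47283 was at 0 in the v1 livers and in v2 replicates 3 and 4, and it stood at 21.6 and 31.8 CPM in v2 replicates 1 and 2. Where they move a list's count of 1 or more members by over 1.5 times, counts over the livers without Gm47283 (all 3 v1 livers and 2 v2 livers) are given beside the full ones, as are counts with a single liver left out. The counts without Gm47283 rest on fewer v2 livers, so the smaller group and the absence of Gm47283 cannot be told apart.

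Of 14906 genes tested, 1052 passed both an adjusted p of 0.05 and a 2-fold difference, which is 7.06% of them. Of these, 616 (4.13%) were higher in v1 livers and 436 (2.92%) were lower. The large differences lay mostly on the higher side: 92 genes were at least 8-fold higher and 14 at least 8-fold lower (a log2 fold change of 3 or more). Without a minimum fold, 3486 genes (23.4%) passed, 1799 (12.1%) higher and 1687 (11.3%) lower, while the all-gene median of the log2 fold change was 0.00549. The values of the 3 v1 livers and the 4 v2 livers did not overlap in 5303 genes, or 35.6%. The higher genes were mostly protein-coding (584 of 616), and 352 of the 436 lower genes were.

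**Figure D1:**
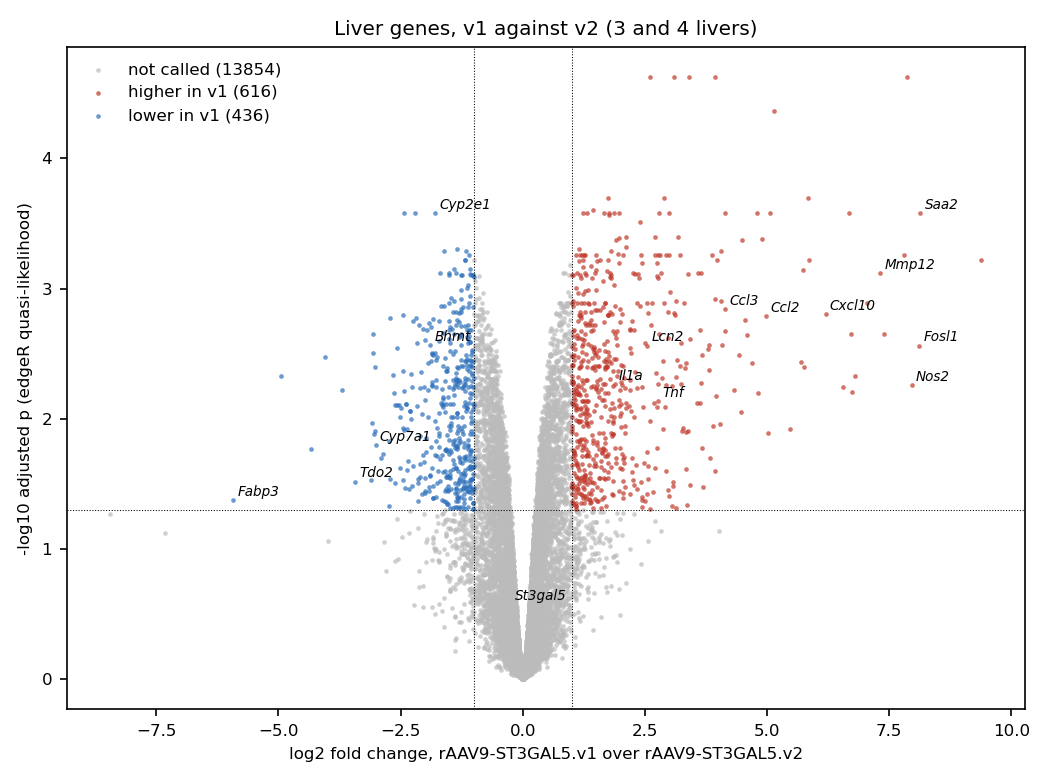
Log2 fold change of v1 over v2 livers (x axis) against −log10 of the adjusted p (y axis) for the 14906 genes tested, with the 616 higher and 436 lower genes coloured. More genes lie beyond a log2 fold change of 3 on the higher side (92) than on the lower side (14).

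The v1 livers were not alike in how far they stood from v2. Replicate 2 had the highest of the 3 values in 476 of the 616 higher genes, and replicate 3 had the lowest in 441. Among the 436 lower genes replicate 2 was the lowest in 254 and replicate 3 the highest in 328. On the first principal component, which took 62.1% of the variance, the v1 livers lay at -31.93, -56.5 and -16.53 and the v2 livers between 20.14 and 31.3. Leaving out v1 replicate 1 brought the lower genes to 245, and the livers without Gm47283 gave 469 genes in all, 306 higher and 163 lower. The split was 468 against 151 by limma on log2(TPM + 1), where the all-gene median stood at 0.173.

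The mouse gene of the same enzyme, St3gal5 (ENSMUSG00000056091.12, chromosome 6, 72097592 to 72154571 in mm10), did not pass the test. St3gal5 had 151, 113 and 181 CPM in v1 livers, against 180, 161, 189 and 182 CPM in v2 livers, a log2 fold change of -0.24 with a 95% interval of -0.57 to 0.09 (adjusted p = 0.264). Its AAV9.empty livers held 178 to 192 CPM. Of the 24 genes tested (27 listed) in the list of glycosphingolipid synthesis and breakdown, 9 were higher and 1 was lower in v1 livers by adjusted p. The enzymes that lead up to GM3 were among the higher ones. Ugcg, which makes glucosylceramide, the precursor of these lipids, had 98.5, 79.1 and 72.4 CPM in v1 livers, against 49.2, 45.9, 46.8 and 46.8 CPM in v2 livers (log2 fold change 0.85, SE 0.114, adjusted p = 0.00181). B4galt5 and B4galt6, which turn glucosylceramide into lactosylceramide, were higher too, at log2 fold changes of 1.21 and 0.75. A4galt, which makes the globoside Gb3 from lactosylceramide, was higher (log2 fold change 1.68, adjusted p = 0.00638). Gal3st1, which makes sulfatide, was the lower one (log2 fold change -1.50, adjusted p = 0.0284), a count of 1 that became 0 without v1 replicate 1, v1 replicate 2, v2 replicate 1, v2 replicate 2 or v2 replicate 4 and 0 over the livers without Gm47283. On the breakdown side Gla, the lysosomal alpha-galactosidase that degrades Gb3, was higher at 20.6, 21.3 and 15.7 CPM in v1 livers, against 6.29, 9.83, 8 and 6.6 CPM in v2 livers (log2 fold change 1.35, SE 0.182, adjusted p = 0.00184). B4galnt1, which carries GM3 on to GM2, differed by 0.01 with an interval of -0.33 to 0.34. The sialyltransferase St3gal1, the acid ceramidase Asah1 and the galactosylceramidase Galc were higher by 0.51, 0.37 and 0.44. The 9 higher members became 5 without v1 replicate 1, v1 replicate 3 or v2 replicate 1 and 3 over the livers without Gm47283.

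Cytokines and chemokines had the highest median fold change of the 44 gene lists described. Of 20 pro-inflammatory cytokines and chemokines tested (26 listed), 17 were higher in v1 livers and none was lower, beside 12.1% and 11.3% of all genes, and their median log2 fold change was 3.19. Their summed level was 323 to 2470 CPM in v1 livers, against 62.7 to 80.2 CPM in v2 livers. The list was chosen with earlier results of these data known.

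Cxcl10, an interferon-induced chemokine that draws T cells, was the most abundant of them in v1 livers. It lay between 131 and 1590 CPM in v1 livers, highest in replicate 2, against 6.5, 14.2, 9.52 and 8.09 CPM in v2 livers (log2 fold change 6.20, SE 0.801, adjusted p = 0.00156). Its groups did not overlap, which held for 35.6% of all genes tested. Ccl2, which draws monocytes, had 32.1, 114 and 20 CPM in v1 livers, against 0.746, 2.99, 2.1 and 1.39 CPM in v2 livers (log2 fold change 4.98, SE 0.652, adjusted p = 0.00162). Its relative Ccl7 had 15.1, 31.3 and 10.8 CPM in v1 livers, against 0.586, 0.672, 0.421 and 0.645 CPM in v2 livers (log2 fold change 5.05, SE 0.407, adjusted p = 0.000261). In all 3 genes v1 replicate 2 was the highest, and v1 replicate 3 the lowest. The neutrophil chemokine Cxcl1 had 65, 106 and 39 CPM in v1 livers, against 4.74, 6.29, 10.8 and 10.7 CPM in v2 livers (log2 fold change 3.13, SE 0.374, adjusted p = 0.00124). Cxcl2, another ligand of the neutrophil receptor Cxcr2, had 12.4, 28.1 and 3.69 CPM in v1 livers, against 0, 0.183, 0.21 and 0.0496 CPM in v2 livers (log2 fold change 7.04, SE 0.856, adjusted p = 0.0013).

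Tnf, the cytokine that starts NF-kB signalling in many cells, had 5.75, 17.8 and 3.57 CPM in v1 livers, against 1.28, 2.01, 1.16 and 0.993 CPM in v2 livers (log2 fold change 2.77, SE 0.531, adjusted p = 0.00732). Il1b, the secreted interleukin made by activated macrophages, had 20.6, 58.5 and 11.2 CPM in v1 livers, against 2.08, 3.66, 1.89 and 1.19 CPM in v2 livers (log2 fold change 3.82, SE 0.568, adjusted p = 0.00269). Il1a, which dying cells also release, had 16.2, 32.6 and 11.1 CPM in v1 livers, against 6.82, 5.86, 4.68 and 4.71 CPM in v2 livers (log2 fold change 1.88, SE 0.335, adjusted p = 0.00542). For Tnf, Il1b and Il1a v1 replicate 2 was on top and v1 replicate 3 was the lowest of the v1 livers, yet above all v2 livers. Among all genes tested, 35.6% had groups that did not overlap. The macrophage chemokine Ccl3 had 5.99, 13.7 and 3 CPM in v1 livers, against 0.32, 0.427, 0.473 and 0.496 CPM in v2 livers (log2 fold change 4.14, SE 0.521, adjusted p = 0.00143). The T cell chemokine Ccl5 differed from these in that its v1 livers were close together, with replicate 2 lowest, at 16.4, 13.9 and 18.3 CPM in v1 livers, against 4.9, 6.66, 5.58 and 6.05 CPM in v2 livers (log2 fold change 1.51, SE 0.145, adjusted p = 0.000548). Lif, a cytokine of the interleukin-6 family that acts through STAT3, had 21.3, 24 and 12.8 CPM in v1 livers, against 2.83, 2.38, 3.16 and 2.98 CPM in v2 livers (log2 fold change 2.79, SE 0.228, adjusted p = 0.000261). Lif was also above AAV9.empty in v2 livers (log2 fold change 3.21, adjusted p = 0.000346), where AAV9.empty livers held 0.162 to 0.471 CPM. Il6 itself, at 0.479, 2.7 and 0.528 CPM in v1 livers, against 0.267, 0.366, 0.368 and 0.248 CPM in v2 livers, missed the threshold (adjusted p = 0.0591). The 17 higher members became 11 over the livers without Gm47283.

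The inhibitors and modulators that cells make in answer to these cytokines were higher as well. All 15 members tested (17 listed) of the list of anti-inflammatory and feedback genes were higher in v1 livers, with a median log2 fold change of 1.80. Their number became 8 over the livers without Gm47283. Socs3, which shuts off STAT3 signalling, had 82, 135 and 60.9 CPM in v1 livers, against 20.9, 10.7, 12.9 and 11.5 CPM in v2 livers (log2 fold change 2.75, SE 0.304, adjusted p = 0.000803). Zfp36, an RNA-binding protein that destabilises cytokine mRNAs, had 155, 277 and 130 CPM in v1 livers, against 29.5, 41.8, 34.2 and 36.4 CPM in v2 livers (log2 fold change 2.43, SE 0.248, adjusted p = 0.000639). Tnfaip3, a deubiquitinase that restrains NF-kB, had 34.2, 105 and 17.9 CPM in v1 livers, against 4, 6.53, 6.31 and 6.2 CPM in v2 livers (log2 fold change 3.22, SE 0.526, adjusted p = 0.00392). None of these 3 had overlapping groups, beside 35.6% of all genes tested without overlap. Nfkbia, the inhibitor that holds NF-kB in the cytoplasm, had 51.2, 105 and 37.9 CPM in v1 livers, against 17.8, 23.4, 20.2 and 20.5 CPM in v2 livers (log2 fold change 1.69, SE 0.3, adjusted p = 0.00542). The interleukin-1 antagonist Il1rn and the decoy receptor Il1r2 differed by 3.24 and 3.11 on the log2 scale. Of 8 genes for NF-kB subunits and the IKK complex that activates them, 6 were higher, with Relb (log2 fold change 1.92, adjusted p = 0.00466) and Nfkb2 (log2 fold change 1.67, adjusted p = 0.00362) differing most and Rela, the main activating subunit, least among the subunits (log2 fold change 0.69, adjusted p = 0.0226). The 6 became 0 over the livers without Gm47283.

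**Figure D2:**
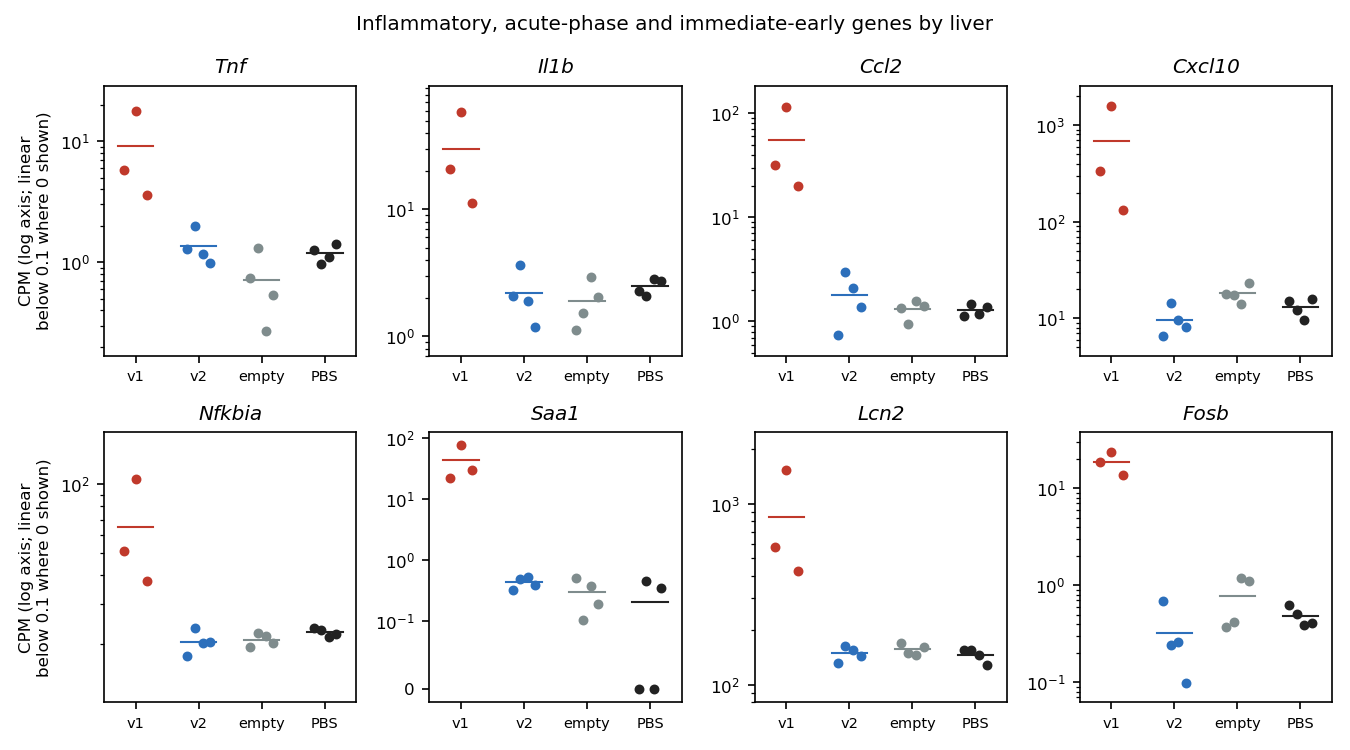
CPM per liver (log axis, linear near 0) of Tnf, Il1b, Ccl2, Cxcl10, Nfkbia, Saa1, Lcn2 and Fosb in v1, v2, AAV9.empty and PBS livers, with each point a liver and each bar the mean of its group. The v1 livers lie above the v2 livers in all 8 genes, and above the AAV9.empty and PBS livers in all 8. Over all genes tested, v1 and v2 livers did not overlap in 35.6%.

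Several of these genes have a match to the NF-kB binding consensus near their start, and 6 of the matches are printed, chosen after the values were seen, to show the letters beside the levels of 3 chemokines, an inhibitor, a subunit and Il6. The consensus was searched under its name on both strands of the window from 250 bases before to 50 bases after each RefSeq gene start of GRCm38.p6. It was found in 1147 of 11252 windows of tested genes (10.2%), in 75 of 444 higher genes (16.9%) and in 29 of 300 lower genes (9.67%). In the list of cytokines and chemokines it was found in 6 of 13 windows (46.2%), and among the feedback genes in 5 of 14 (35.7%). The matches are given on the strand of the gene in GRCm38.p6, with the matched 10 bases in capitals. A match describes letters and not a bound site.
Cxcl1, 71 bases before the start, chr5:90891164-90891193, plus strand: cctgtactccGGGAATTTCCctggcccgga
Cxcl2, 97 bases before the start, chr5:90903792-90903821, plus strand: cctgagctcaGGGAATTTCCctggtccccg
Cxcl10, 103 bases before the start, chr5:92348973-92349002, minus strand: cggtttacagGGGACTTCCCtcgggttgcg
Nfkbia, 29 bases before the start, chr12:55492657-55492686, minus strand: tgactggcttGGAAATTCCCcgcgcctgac
Nfkb2, 39 bases before the start, chr19:46304688-46304717, plus strand: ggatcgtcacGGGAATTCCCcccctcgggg
Il6, 44 bases before the start, chr5:30013060-30013089, plus strand: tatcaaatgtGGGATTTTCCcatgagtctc

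The neighbours Cxcl1 and Cxcl2 carried the same 10 letters, and both were higher in v1 livers by adjusted p. Il6 had a match too and did not pass the test, as said above. The AP-1 letters (TGACTCA or TGAGTCA) were in 10.4% of the windows of higher genes, 4.67% of lower genes and 3.86% of all tested genes. Matches to the interferon-stimulated response element were in 7.43%, 1.33% and 3.16% of them, and in 18 of 31 windows of the list of interferon-stimulated genes (58.1%). Matches of the NF-kB and interferon-response motifs overlapped in 1 window, and AP-1 matches overlapped neither. The AP-1 letters were in 0 of 21 windows of the list of immediate-early genes. The letters of the cAMP response element were also searched, and were in 2.7% of higher, 1% of lower and 3.06% of all tested genes. Those of the TATA box were in 16.7%, 14.3% and 7.71%, so more often in both directions.

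The acute-phase proteins, which hepatocytes secrete into the blood in inflammation, were higher in part. Of 27 tested (29 listed), 15 were higher in v1 livers and none was lower, with a median of 0.88. The 15 became 6 over the livers without Gm47283. Saa1, a serum amyloid A protein carried on lipoproteins, had 22.6, 78.7 and 30.2 CPM in v1 livers, against 0.32, 0.488, 0.526 and 0.397 CPM in v2 livers (log2 fold change 6.68, SE 0.517, adjusted p = 0.000261). Its near copy Saa2 shared 44.5% of its 31-base words with other genes, so the division of reads between the pair is uncertain. Saa2 had 6.23, 20.7 and 11.8 CPM in v1 livers, against 0, 0.0611, 0.105 and 0 CPM in v2 livers, a ratio of counts by depth of 317 (exact 95% counting interval 108 to 1540). Saa3, made mainly by macrophages, had 25.2, 61.4 and 42.5 CPM in v1 livers, against 1.17, 2.87, 1.05 and 1.29 CPM in v2 livers (log2 fold change 4.80, SE 0.384, adjusted p = 0.000261). Orm1, an alpha-1-acid glycoprotein, had 22.9, 77.9 and 42.9 CPM in v1 livers, against 2.03, 2.26, 0.999 and 1.29 CPM in v2 livers (log2 fold change 4.90, SE 0.434, adjusted p = 0.000416), though 27.5% of its 31-base words are shared with other genes. Lcn2, which binds the iron carriers of bacteria and is made by hepatocytes and neutrophils, had 576, 1540 and 426 CPM in v1 livers, against 132, 164, 156 and 144 CPM in v2 livers (log2 fold change 2.54, SE 0.381, adjusted p = 0.00274). Abundant plasma proteins differed less. The 3 fibrinogen chains Fga, Fgb and Fgg had log2 fold changes of 0.92, 0.88 and 0.75, and hemopexin (Hpx), which binds free heme, had 4300, 7930 and 5030 CPM in v1 livers, against 2790, 3420, 3050 and 3040 CPM in v2 livers (log2 fold change 0.93, SE 0.199, adjusted p = 0.0112).

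Interferon-stimulated genes were high mainly in v1 replicate 2. Of 40 tested, 9 were higher in v1 livers, none was lower, and the median log2 fold change was 1.47. Gbp2, a guanylate-binding protein induced by interferon gamma, had 48.2, 564 and 38.3 CPM in v1 livers, against 12.6, 17.5, 12.4 and 11.9 CPM in v2 livers (log2 fold change 4.04, SE 0.857, adjusted p = 0.0109). Irf1, a transcription factor downstream of the same cytokine, had 64.5, 284 and 49.5 CPM in v1 livers, against 26.4, 38.3, 30.6 and 33.8 CPM in v2 livers (log2 fold change 2.07, SE 0.523, adjusted p = 0.0217). Ifit1, which binds foreign RNA caps, had 11.6, 99.8 and 9.13 CPM in v1 livers, against 3.68, 10.5, 7.94 and 6.95 CPM in v2 livers (log2 fold change 2.51, SE 0.77, adjusted p = 0.0432), and its groups overlapped. In all 3 v1 replicate 2 stood several times above the other v1 livers. The summed level of the list was 1330 to 7180 CPM in v1 livers, against 875 to 1520 CPM in v2 livers. The 9 higher members became 4 without v1 replicate 2, 28 without v1 replicate 3, 1 without v2 replicate 1, 3 without v2 replicate 2 or v2 replicate 3, 2 without v2 replicate 4 and 0 over the livers without Gm47283. The count also moved with the fit, to 30 with all 22 livers, 17 without the count filter, 4 by limma on log2(TPM + 1) and 1 with robust dispersion. Of 18 nucleic acid and capsid sensors, 7 were higher, among them Tlr2, a receptor reported to see AAV capsids, at 20.8, 47 and 14 CPM in v1 livers, against 6.34, 7.2, 5.47 and 7.3 CPM in v2 livers (log2 fold change 2.08, SE 0.36, adjusted p = 0.0049), and Sting1, the adaptor of cytosolic DNA sensing, at 14.5, 23.5 and 12.5 CPM in v1 livers, against 5.01, 6.59, 7.15 and 5.71 CPM in v2 livers (log2 fold change 1.49, SE 0.231, adjusted p = 0.00324). Tlr9, the endosomal receptor of unmethylated DNA, had 2.44, 6.24 and 2.76 CPM in v1 livers, against 2.29, 2.75, 2.47 and 3.92 CPM in v2 livers, with a log2 fold change of 0.44 and an interval of -0.37 to 1.25. The 7 sensors became 11 without v1 replicate 3 and 1 over the livers without Gm47283.

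Immediate-early genes, transcribed at once when a signal reaches the cell, were higher almost throughout. Of 26 tested, 23 were higher in v1 livers and none was lower, with a median log2 fold change of 2.50. Atf3, a stress-induced repressor, had 50.3, 61.6 and 38.2 CPM in v1 livers, against 3.47, 4.21, 2.63 and 3.03 CPM in v2 livers (log2 fold change 3.94, SE 0.205, adjusted p = 2.37e-05). Fos, a partner of Jun in AP-1, had 36.3, 40 and 31.8 CPM in v1 livers, against 3.73, 3.91, 5 and 4.52 CPM in v2 livers (log2 fold change 3.09, SE 0.142, adjusted p = 2.37e-05), and Jun had 88.6, 120 and 88.5 CPM in v1 livers, against 15.8, 15.8, 17.8 and 16.9 CPM in v2 livers (log2 fold change 2.60, SE 0.131, adjusted p = 2.37e-05). In these 3 genes the v1 livers were closer to each other than in Cxcl10 or Ccl2. AAV9.empty livers held 1.73 to 20.2 CPM of Fos and 18.6 to 52.9 CPM of Jun, the latter above every v2 liver. Fosb, another AP-1 member, had 18.6, 23.6 and 13.6 CPM in v1 livers, against 0.693, 0.244, 0.263 and 0.0993 CPM in v2 livers (log2 fold change 5.85, SE 0.4, adjusted p = 0.000201). Fosl1 was read at 2.44, 1.67 and 1.01 CPM in v1 livers, against 0, 0, 0 and 0 CPM in v2 livers, at least 41.4-fold higher against a floor of 3 counts over the v2 livers. Fosl1 shares 54.5% of its 31-base words with Ccdc85b, so its count is uncertain. The transcription factors Egr2, Egr3 and Nr4a1 were higher by 5.74, 2.90 and 2.89 on the log2 scale. Egr1, a growth-factor response gene, had 174, 260 and 144 CPM in v1 livers, against 15.8, 28.3, 42.7 and 38.2 CPM in v2 livers (log2 fold change 2.65, SE 0.322, adjusted p = 0.0013), while AAV9.empty livers reached 40.9 to 128 CPM.

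Genes of wound repair and matrix remodelling followed the same direction, with 16 of 20 tested (22 listed) higher, none lower and a median of 2.03. Plau and Plat, the plasminogen activators, were higher, at log2 fold changes of 1.43 and 1.76. Plg, the plasminogen they cleave, is not on this list and was lower at 1390, 1790 and 1510 CPM in v1 livers, against 2430, 2500, 2100 and 2020 CPM in v2 livers (log2 fold change -0.51, SE 0.133, adjusted p = 0.0248). Timp1, the inhibitor of matrix metalloproteinases, had 46.4, 60.9 and 45.9 CPM in v1 livers, against 1.71, 2.63, 2.05 and 5.36 CPM in v2 livers (log2 fold change 4.13, SE 0.326, adjusted p = 0.000261). The metalloproteinase Mmp12, made by macrophages, had 15.6, 27.2 and 4.38 CPM in v1 livers, against 0, 0.0611, 0.158 and 0.149 CPM in v2 livers (log2 fold change 7.32, SE 0.786, adjusted p = 0.000764). The collagenase Mmp13 had 8.05, 36.4 and 3.25 CPM in v1 livers, against 0.16, 0.244, 0.105 and 0.0993 CPM in v2 livers (log2 fold change 6.72, SE 0.952, adjusted p = 0.00225). Both were close to 0 in every v2 liver. Ccn1, a matrix protein induced by YAP signalling, had 73.3, 77.8 and 49.4 CPM in v1 livers, against 6.18, 5.74, 7.26 and 6.6 CPM in v2 livers (log2 fold change 3.40, SE 0.175, adjusted p = 2.37e-05). The EGF receptor ligands Hbegf, Areg and Ereg were higher as well, with log2 fold changes of 2.55, 4.14 and 2.91.

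Of 17 keratins and epithelial stress genes, 11 were higher and 1 was lower. Sprr1a, a cornified-envelope protein that marks stressed epithelium, had 72.5, 30.5 and 48.9 CPM in v1 livers, against 0.267, 0.366, 0.105 and 0.149 CPM in v2 livers (log2 fold change 7.86, SE 0.401, adjusted p = 2.37e-05). Cldn4, a tight-junction claudin, had 24.2, 13.6 and 23.5 CPM in v1 livers, against 0.32, 0.733, 0.736 and 0.546 CPM in v2 livers (log2 fold change 5.15, SE 0.292, adjusted p = 4.29e-05). In both genes v1 replicate 2, the highest liver for Cxcl10 and Ccl2, was the lowest of the 3. The simple keratins Krt8 and Krt18, which form the filaments of hepatocytes, differed by 1.40 and 1.45, and Krt8 shares 36% of its 31-base words with other genes. Krt23 was the lower one at 3.88, 2.11 and 4.71 CPM in v1 livers, against 9.01, 9.89, 8.47 and 10.8 CPM in v2 livers (log2 fold change -1.39, SE 0.246, adjusted p = 0.00541), which did not pass over the livers without Gm47283.

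**Figure D3:**
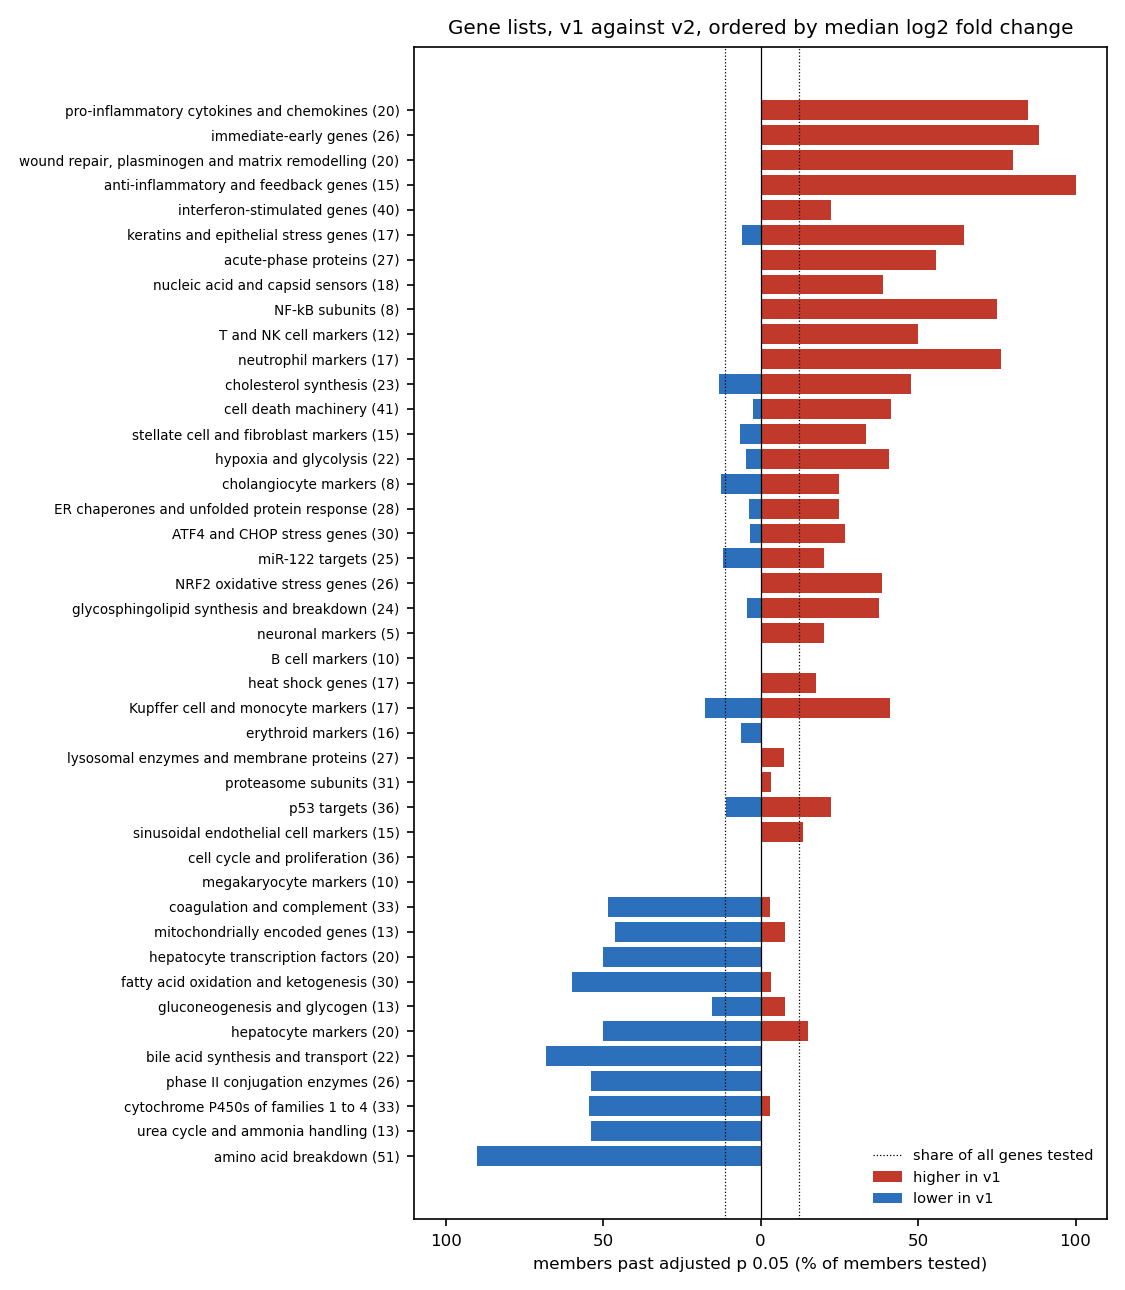
Percent of the members tested of each gene list (number tested in parentheses, lists ordered by median log2 fold change of v1 over v2) that passed an adjusted p of 0.05, with members higher in v1 to the right, members lower to the left and dotted lines at the shares of all genes tested (12.1% and 11.3%). Cytokines, immediate-early and wound repair genes stand at the top of the order, and amino acid breakdown at the bottom with 46 of 51 lower.

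Genes of hepatocyte metabolism were lower in v1 livers across several lists. Of 51 genes tested for amino acid breakdown, 46 were lower and none was higher, with a median of -0.93, beside 11.3% lower among all genes. Their summed level was 3410 to 5090 CPM in v1 livers, against 7290 to 9870 CPM in v2 livers. Bhmt, which remethylates homocysteine with betaine, had 203, 340 and 503 CPM in v1 livers, against 1460, 1510, 975 and 1320 CPM in v2 livers (log2 fold change -1.90, SE 0.283, adjusted p = 0.00273), though 30.3% of its 31-base words are shared with other genes. Gnmt, which disposes of excess methyl groups, had 42, 57.9 and 49.6 CPM in v1 livers, against 179, 200, 125 and 150 CPM in v2 livers (log2 fold change -1.69, SE 0.178, adjusted p = 0.000753). Hpd, the dioxygenase of tyrosine breakdown, had 101, 123 and 169 CPM in v1 livers, against 407, 397, 311 and 363 CPM in v2 livers (log2 fold change -1.47, SE 0.174, adjusted p = 0.00118). In Bhmt, Gnmt and Hpd every v1 liver was below every v2 liver, beside 35.6% of all genes tested whose groups did not overlap. Agxt, which detoxifies glyoxylate in peroxisomes, had 97.5, 128 and 145 CPM in v1 livers, against 383, 442, 282 and 320 CPM in v2 livers (log2 fold change -1.50, SE 0.183, adjusted p = 0.0013). Tdo2, the first enzyme of tryptophan breakdown, had 0.479, 0.197 and 0.528 CPM in v1 livers, against 6.13, 10.1, 0.684 and 1.19 CPM in v2 livers (log2 fold change -3.43, SE 0.95, adjusted p = 0.0304). The Tdo2 levels of v2 replicates 3 and 4 were far below those of v2 replicates 1 and 2 and close to the v1 livers. The 46 lower members became 28 without v1 replicate 1 and 17 over the livers without Gm47283.

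Of 13 genes tested (14 listed) of the urea cycle and ammonia handling, 7 were lower and none was higher. Otc and Ass1, enzymes of the cycle itself, had log2 fold changes of -1.09 and -0.96. Otc had 25.9, 30.7 and 32.7 CPM in v1 livers, against 75.6, 84.3, 44.4 and 53.7 CPM in v2 livers (adjusted p = 0.00759). Car5a, the mitochondrial carbonic anhydrase that supplies bicarbonate to the cycle, had 0.431, 0.295 and 0.771 CPM in v1 livers, against 3.41, 2.56, 1.95 and 2.13 CPM in v2 livers (log2 fold change -2.27, SE 0.388, adjusted p = 0.00457), and it was also lower in v2 than in AAV9.empty livers (log2 fold change -1.23, adjusted p = 0.0069). The count of 7 became 4 without v1 replicate 1 and 2 over the livers without Gm47283.

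Of 22 genes tested (24 listed) of bile acid synthesis and transport, 15 were lower and none was higher. Cyp7a1, whose hydroxylase step limits the rate at which cholesterol becomes bile acid, had 0.767, 0.197 and 5.6 CPM in v1 livers, against 19, 14.9, 17.7 and 21.9 CPM in v2 livers (log2 fold change -3.01, SE 0.701, adjusted p = 0.016). Cyp8b1, which sets the share of cholic acid, had 21.3, 9.97 and 69.3 CPM in v1 livers, against 105, 120, 112 and 145 CPM in v2 livers (log2 fold change -1.83, SE 0.518, adjusted p = 0.0327). For Cyp7a1 and Cyp8b1 the v1 livers spread widely, with replicate 3 nearest to v2. The export pump Abcb11 was steadier, at 146, 151 and 146 CPM in v1 livers, against 227, 231, 217 and 220 CPM in v2 livers (log2 fold change -0.57, SE 0.0835, adjusted p = 0.00247). Nr1h4, the nuclear receptor FXR that senses bile acids, was lower too (log2 fold change -0.79, adjusted p = 0.0323). The 15 lower members became 4 without v1 replicate 1, 9 without v2 replicate 2 and 2 over the livers without Gm47283.

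Of 33 tested (38 listed) cytochrome P450s of families 1 to 4, 18 were lower and 1 was higher. Cyp2e1, which oxidises ethanol and small solvents near the central vein, had 221, 256 and 323 CPM in v1 livers, against 827, 971, 995 and 973 CPM in v2 livers (log2 fold change -1.80, SE 0.144, adjusted p = 0.000261). Cyp3a25, a drug-metabolising enzyme, had 20.9, 23 and 26.8 CPM in v1 livers, against 70.2, 63.3, 52.8 and 58.2 CPM in v2 livers (log2 fold change -1.35, SE 0.124, adjusted p = 0.000493). Cyp1b1, a form expressed mostly outside hepatocytes, was the higher one at 3.4, 5.55 and 1.66 CPM in v1 livers, against 0.427, 0.55, 0.684 and 0.298 CPM in v2 livers (log2 fold change 2.87, SE 0.461, adjusted p = 0.00362), which passed neither over the livers without Gm47283 nor by limma on log2(TPM + 1). The 18 became 8 without v1 replicate 1 and 6 over the livers without Gm47283. Among 26 tested (28 listed) phase II conjugation enzymes 14 were lower, led by the sulfotransferase Sult2a8 at 3.55, 4.52 and 4.42 CPM in v1 livers, against 23.4, 27.2, 13 and 13.5 CPM in v2 livers (log2 fold change -2.18, SE 0.287, adjusted p = 0.00168). That count became 3 without v1 replicate 1, 8 without v1 replicate 2, 7 without v2 replicate 1, 6 without v2 replicate 2, 9 without v2 replicate 4 and 5 over the livers without Gm47283.

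Fatty acid oxidation had 18 lower genes and 1 higher gene among 30. Ppara, the nuclear receptor that drives this pathway, had 14, 9.19 and 23.3 CPM in v1 livers, against 41.5, 31.4, 36.2 and 35.2 CPM in v2 livers (log2 fold change -1.20, SE 0.256, adjusted p = 0.0114). The 18 lower members became 4 without v1 replicate 1, 11 without v2 replicate 1 and 3 over the livers without Gm47283, and the 1 higher member became 2 without v2 replicate 3. Of 13 genes tested (14 listed) of gluconeogenesis and glycogen, 1 was higher and 2 were lower, beside 12.1% and 11.3% of all genes. The lower ones were Slc37a4, the glucose-6-phosphate transporter (log2 fold change -1.28, adjusted p = 0.00526), and Pygl, glycogen phosphorylase (log2 fold change -0.62, adjusted p = 0.0163). The 2 became 1 without v1 replicate 1, 7 without v1 replicate 3 and 1 over the livers without Gm47283. Igfbp1, an insulin-repressed secreted protein, was the higher one at 3560, 3150 and 3490 CPM in v1 livers, against 1620, 1440, 2790 and 2310 CPM in v2 livers (log2 fold change 0.76, SE 0.214, adjusted p = 0.0323). That count of 1 became 0 without v1 replicate 1, v1 replicate 2, v1 replicate 3, v2 replicate 1, v2 replicate 2 or v2 replicate 4 and 0 over the livers without Gm47283.

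**Figure D4:**
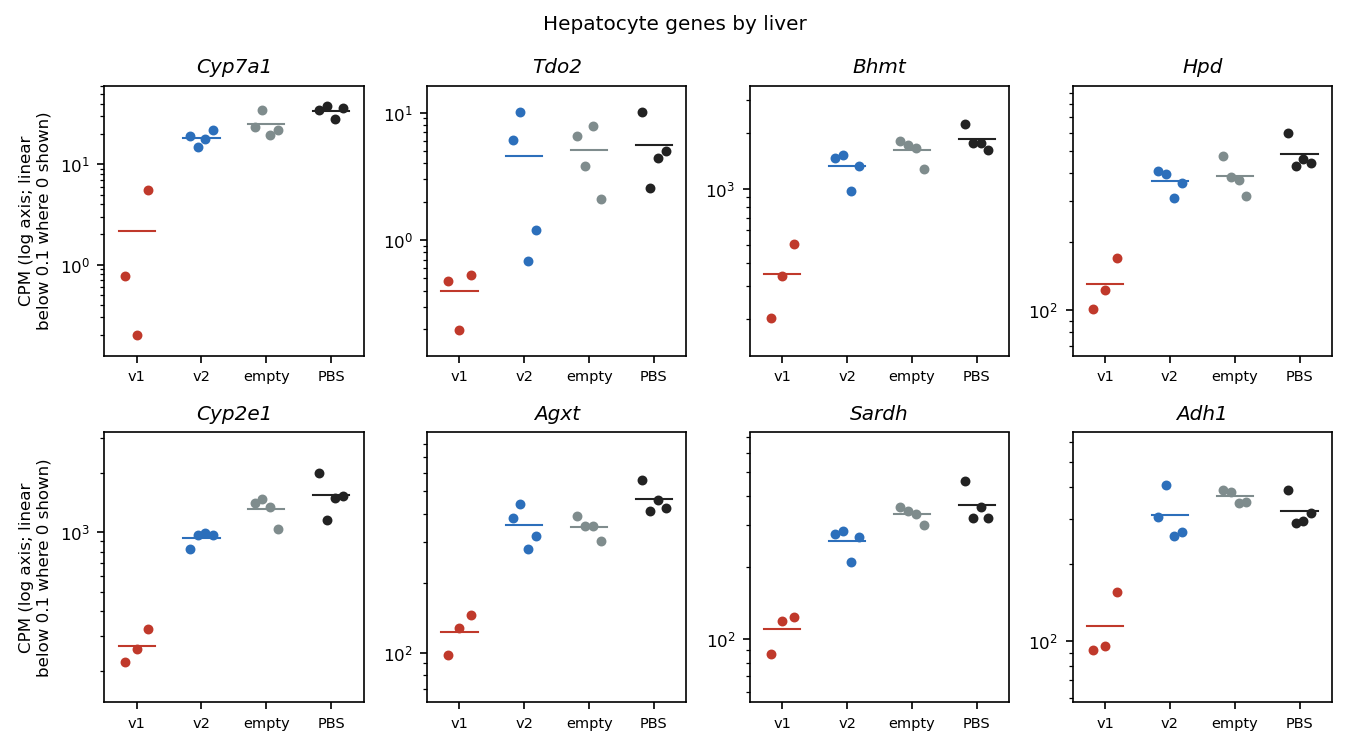
CPM per liver (log axis) of Cyp7a1, Tdo2, Bhmt, Hpd, Cyp2e1, Agxt, Sardh and Adh1 in v1, v2, AAV9.empty and PBS livers, with each point a liver and each bar the mean of its group. All v1 livers lie below all v2 livers in each of the 8 genes. Cyp7a1 and Tdo2 were chosen among genes without overlap, and over all genes tested v1 and v2 livers did not overlap in 35.6%.

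The factors that maintain hepatocyte identity were lower in 10 of 20 cases and higher in none. Foxa2, a pioneer factor of the liver, had 7.62, 6.19 and 7.87 CPM in v1 livers, against 17.6, 21.2, 14 and 18.1 CPM in v2 livers (log2 fold change -1.27, SE 0.159, adjusted p = 0.00143). Nr1i3, the xenobiotic receptor CAR, had 24.9, 15.9 and 44.9 CPM in v1 livers, against 110, 93, 92.9 and 103 CPM in v2 livers (log2 fold change -1.78, SE 0.283, adjusted p = 0.00354). Nr1i3 was also higher in v2 than in AAV9.empty livers (log2 fold change 0.68, adjusted p = 0.00249), which held 53.1 to 69.1 CPM. The 10 members became 3 without v1 replicate 1, 6 without v2 replicate 1 or v2 replicate 3 and 2 over the livers without Gm47283. Of 33 coagulation and complement genes, 16 were lower and 1 was higher, with Klkb1, prekallikrein, at 55.8, 37.4 and 74 CPM in v1 livers, against 160, 184, 118 and 119 CPM in v2 livers (log2 fold change -1.36, SE 0.235, adjusted p = 0.00488) and the anticoagulant Pros1 as the higher one (log2 fold change 0.52, adjusted p = 0.0148), which did not pass without v1 replicate 1. The 16 became 5 without v1 replicate 1, 10 without v1 replicate 3 and 2 over the livers without Gm47283. Among 20 hepatocyte markers 10 were lower and 3, the fibrinogen chains, were higher. Ttr, the thyroxine carrier, had 3350, 3480 and 4110 CPM in v1 livers, against 6290, 6520, 5050 and 5850 CPM in v2 livers (log2 fold change -0.68, SE 0.129, adjusted p = 0.0072), and albumin (Alb) had 33900, 41100 and 40700 CPM in v1 livers, against 50300, 54200, 43800 and 47100 CPM in v2 livers (log2 fold change -0.32, adjusted p = 0.126), which missed the threshold. The fibrinogen chains did not pass over the livers without Gm47283, and the 10 lower markers became 4 without v1 replicate 1, 5 without v2 replicate 1 and 2 over the livers without Gm47283. In bulk liver RNA, fewer hepatocytes and less RNA per hepatocyte cannot be told apart.

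Cholesterol synthesis differed in direction from the lists above, with 11 of 23 genes higher in v1 livers and 3 lower. Their summed level was 2100 to 2220 CPM in v1 livers, overlapping 1790 to 2170 CPM in v2 livers. Both groups lay below the AAV9.empty livers (2520 to 3020 CPM) and the PBS livers (2400 to 2860 CPM). Lss, which closes the sterol ring as lanosterol synthase, had 76.4, 95.1 and 71.4 CPM in v1 livers, against 36, 37.1, 58.1 and 42.9 CPM in v2 livers (log2 fold change 0.92, SE 0.178, adjusted p = 0.00762). Insig1, which holds back the activation of SREBP, had 78.6, 79.3 and 73.4 CPM in v1 livers, against 48.2, 46, 55.7 and 38.2 CPM in v2 livers (log2 fold change 0.74, SE 0.124, adjusted p = 0.00429). In the comparison of v2 with AAV9.empty, 8 of the 23 were lower and none was higher, beside 5.38% of the 14558 genes tested there that passed an adjusted p of 0.05 (2.88% higher and 2.5% lower). Both comparisons rest on the same v2 livers, so their directions are not independent. The 11 higher members became 6 without v1 replicate 1, v1 replicate 2 or v2 replicate 4, 7 without v2 replicate 1 and 2 over the livers without Gm47283, and the 3 lower members became 0 without v1 replicate 1 and 1 over the livers without Gm47283.

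Of 13 mitochondrially encoded transcripts, 6 were lower in v1 than in v2 livers and 1 was higher, and 4 were higher in v2 than in AAV9.empty livers. mt-Co3, a subunit of cytochrome c oxidase, had 1570, 1830 and 1420 CPM in v1 livers, against 2700, 3160, 2260 and 2630 CPM in v2 livers (log2 fold change -0.72, SE 0.146, adjusted p = 0.00914), and AAV9.empty livers held 2000 to 2210 CPM. The 6 became 3 without v1 replicate 1, 1 without v1 replicate 3, v2 replicate 1 or v2 replicate 4 and 0 over the livers without Gm47283, and the 1 higher member became 0 without v1 replicate 1, v1 replicate 2, v2 replicate 1, v2 replicate 2, v2 replicate 3 or v2 replicate 4 and 0 over the livers without Gm47283.

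Many p53 targets stood at similar levels in v1 and v2 livers and higher there than in AAV9.empty livers. Of 36 tested, 8 were higher and 4 lower in v1 than in v2 livers, beside 12.1% and 11.3% of all genes. Their median log2 fold change was 0.0407. In v2 against AAV9.empty livers 22 of 36 were higher, none was lower and the median was 0.695, beside 419 higher and 364 lower among the 14558 genes tested there. Bax, a pore-forming protein of apoptosis, had 67.1, 76.8 and 67.3 CPM in v1 livers, against 63.3, 72.4, 70.3 and 78.6 CPM in v2 livers. Bax differed between the vectors by 0.01 with an interval of -0.22 to 0.24, and between v2 and AAV9.empty by 1.36 (AAV9.empty, 24.8 to 30.4 CPM). Ccng1, a cyclin induced by p53, had 85.4, 67.6 and 93.1 CPM in v1 livers, against 78.3, 80.5, 81.7 and 85.6 CPM in v2 livers and an interval of -0.21 to 0.28, with 19.2 to 21.6 CPM in AAV9.empty livers. Phlda3, a repressor of AKT signalling, had 33.5, 33.5 and 45.6 CPM in v1 livers, against 33.4, 45.6, 38.1 and 47.5 CPM in v2 livers and an interval of -0.45 to 0.23, with 3.69 to 6.05 CPM in AAV9.empty livers. For these 3 genes the v1 and v2 livers overlapped and all of them lay above every AAV9.empty liver. Over all genes tested there, v2 and AAV9.empty livers did not overlap in 14.4%.

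Cdkn1a (p21), the inhibitor of the cell cycle, had 182, 193 and 205 CPM in v1 livers, against 122, 180, 164 and 161 CPM in v2 livers, which missed the threshold (log2 fold change 0.33, adjusted p = 0.0987), and 24.9 to 31.3 CPM in AAV9.empty livers. Other targets were higher in v1 than in v2. Mdm2, which targets p53 for destruction, had 66.3, 54.3 and 62.7 CPM in v1 livers, against 41.5, 37.7, 47.6 and 50.2 CPM in v2 livers (log2 fold change 0.49, SE 0.119, adjusted p = 0.0191), with 24.1 to 26.2 CPM in AAV9.empty livers. Eda2r, a receptor of the TNF family, had 7.86, 5.9 and 7.71 CPM in v1 livers, against 2.88, 3.66, 4.16 and 5.26 CPM in v2 livers (log2 fold change 0.86, SE 0.221, adjusted p = 0.0228), with 0.157 to 0.388 CPM in AAV9.empty livers. The death receptor Tnfrsf10b followed the same order (log2 fold change 0.82, adjusted p = 0.00543). Pmaip1, an apoptosis activator, had 13.4, 13.4 and 9.74 CPM in v1 livers, against 3.31, 3.54, 2.26 and 2.93 CPM in v2 livers (log2 fold change 2.04, SE 0.199, adjusted p = 0.000548), and its log2 fold change between v2 and AAV9.empty was 0.05 (adjusted p = 0.932). Dcxr, an xylulose reductase, ran the other way at 35.4, 35 and 44.5 CPM in v1 livers, against 81.2, 100, 81.5 and 89.1 CPM in v2 livers (log2 fold change -1.18, SE 0.118, adjusted p = 6e-04), with 30.9 to 38.7 CPM in AAV9.empty livers. The 8 higher members became 5 over the livers without Gm47283. The 4 lower members became 2 without v1 replicate 1, v2 replicate 2 or v2 replicate 3, 1 without v1 replicate 2, v2 replicate 1 or v2 replicate 4 and 1 over the livers without Gm47283.

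**Figure D5:**
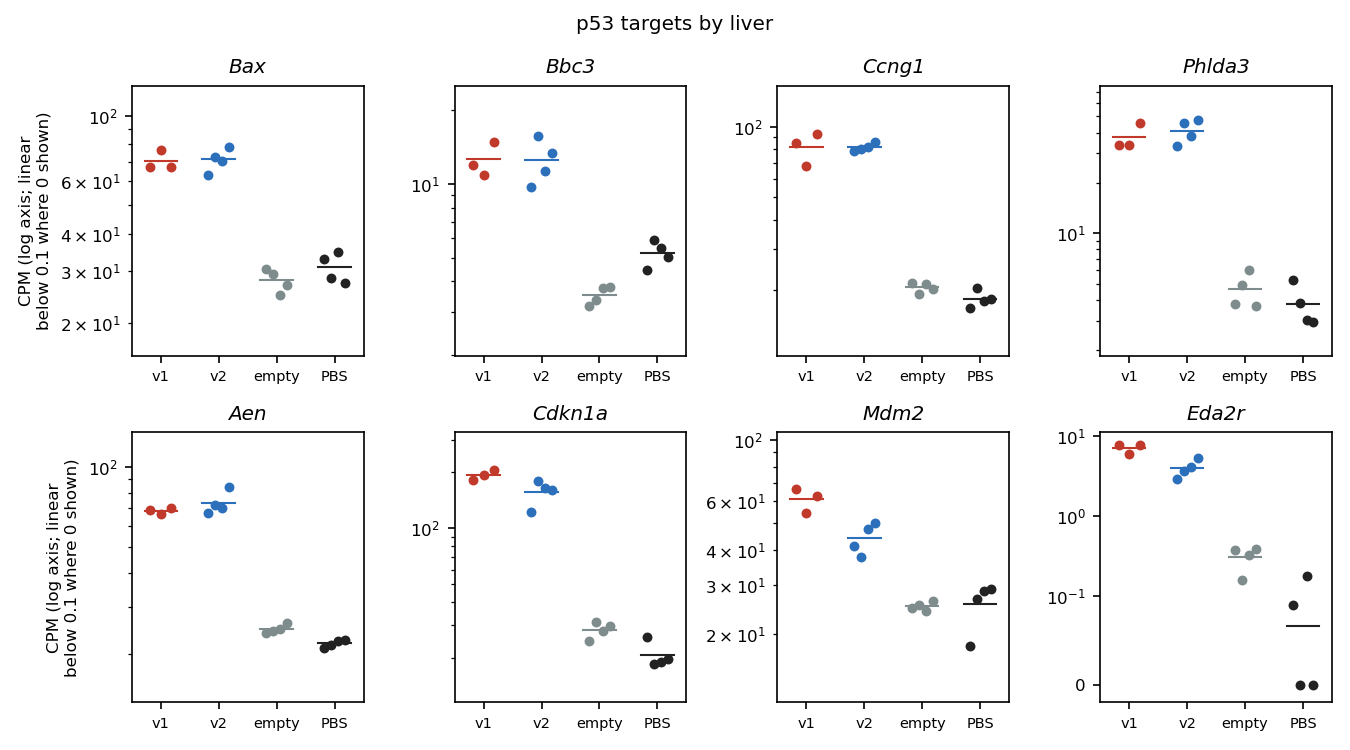
CPM per liver (log axis, linear near 0) of Bax, Bbc3, Ccng1, Phlda3, Aen, Cdkn1a, Mdm2 and Eda2r in v1, v2, AAV9.empty and PBS livers, with each point a liver and each bar the mean of its group. The v1 and v2 livers lie above AAV9.empty and PBS in all 8 genes, and v1 lies above v2 without overlap in Cdkn1a, Mdm2 and Eda2r. Over all genes tested, v1 and v2 livers did not overlap in 35.6%, and v2 and AAV9.empty livers in 14.4%. Cdkn1a did not pass the test of v1 against v2.

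Of 41 genes tested (42 listed) for cell death, 17 were higher and 1 was lower. Tnfrsf12a, the TWEAK receptor, had 133, 137 and 91.1 CPM in v1 livers, against 17.2, 20.3, 27 and 27.7 CPM in v2 livers (log2 fold change 2.41, SE 0.202, adjusted p = 0.00031). Mlkl, the executioner of necroptosis, had 10.3, 30.4 and 7.95 CPM in v1 livers, against 5.6, 6.35, 5.05 and 4.96 CPM in v2 livers (log2 fold change 1.59, SE 0.411, adjusted p = 0.0235), and Gsdmd, the pore former of pyroptosis, 37.4, 64.7 and 36.8 CPM in v1 livers, against 22.4, 30.4, 28.4 and 23.7 CPM in v2 livers (log2 fold change 0.85, SE 0.209, adjusted p = 0.0201). Apaf1 and Casp8, which start the caspase cascade, were higher by 0.74 and 0.54. Protective genes were among the higher ones too, with Mcl1 at 0.61 and Bcl2l1 at 0.67. The 17 became 11 without v2 replicate 1 and 6 over the livers without Gm47283, and the 1 lower member became 0 without v1 replicate 1, v1 replicate 3, v2 replicate 1, v2 replicate 2 or v2 replicate 4 and 0 over the livers without Gm47283.

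Stress programmes were higher in part, and their counts stand beside 12.1% higher and 11.3% lower among all genes. The median log2 fold change was 0.256 for the ATF4 and CHOP list. It was 0.276 for the list of ER chaperones and the unfolded protein response. Of 30 genes of the ATF4 and CHOP response, 8 were higher and 1 was lower, among them Gdf15, a stress hormone, at 63.2, 58.1 and 45.7 CPM in v1 livers, against 8.8, 13.5, 15.8 and 13.9 CPM in v2 livers (log2 fold change 2.12, SE 0.193, adjusted p = 0.000478), and Ddit3, which encodes CHOP, at 32.6, 22 and 27.4 CPM in v1 livers, against 13.3, 9.22, 15 and 9.68 CPM in v2 livers (log2 fold change 1.24, SE 0.197, adjusted p = 0.00355). Classical amino acid synthesis targets such as Asns are on that list, and Asns had 74.4, 74.4 and 71.7 CPM in v1 livers, against 91.9, 90, 74.1 and 80.5 CPM in v2 livers (log2 fold change -0.17, adjusted p = 0.241). The 8 became 5 over the livers without Gm47283, and the 1 lower member became 0 without v1 replicate 1, v1 replicate 2, v2 replicate 2, v2 replicate 3 or v2 replicate 4. Of 28 ER chaperones and genes of the unfolded protein response, 7 were higher and 1 lower, and the 7 became 2 without v1 replicate 1, v1 replicate 2 or v2 replicate 1, 12 without v1 replicate 3, 3 without v2 replicate 3 or v2 replicate 4 and 2 over the livers without Gm47283. By limma on log2(TPM + 1) 15 were higher, with the erythroid covariate 14 and with all 22 livers 12, and the 1 lower member became 0 without v1 replicate 1 and 0 over the livers without Gm47283. Hspa5, the chaperone BiP, had 922, 1190 and 774 CPM in v1 livers, against 638, 667, 625 and 676 CPM in v2 livers (log2 fold change 0.59, SE 0.146, adjusted p = 0.0202). AAV9.empty livers held 765 to 922 CPM of Hspa5, and v2 livers were lower than these (log2 fold change -0.34, adjusted p = 0.0337). Of 26 NRF2 genes 10 were higher and none lower, with Hmox1, which degrades heme, at 303, 331 and 264 CPM in v1 livers, against 107, 163, 160 and 138 CPM in v2 livers (log2 fold change 1.10, SE 0.157, adjusted p = 0.00228), and with the cystine transporter Slc7a11 and the peroxiredoxin repair enzyme Srxn1 at log2 fold changes of 3.67 and 1.28. Of 17 heat shock genes 3 were higher, beside 12.1% of all genes, and of 31 proteasome subunits Psmd8 was (log2 fold change 0.43, adjusted p = 0.0103). The count of 1 became 2 without v1 replicate 3, 3 without v2 replicate 2 and 0 over the livers without Gm47283. By limma on log2(TPM + 1) 11 proteasome subunits and 5 heat shock genes were higher. None of 36 cell cycle genes passed, and their median was -0.0328. Hypoxia and glycolysis genes were higher in 9 of 22 cases and lower in 1, with Pfkfb3, an activator of glycolysis, at 50, 120 and 33.8 CPM in v1 livers, against 12.3, 10.6, 13.4 and 12.3 CPM in v2 livers (log2 fold change 2.51, SE 0.371, adjusted p = 0.00262). The 9 became 5 over the livers without Gm47283, and the 1 lower member became 0 without v1 replicate 1, v1 replicate 2, v2 replicate 1, v2 replicate 3 or v2 replicate 4 and 2 without v1 replicate 3.

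Markers of other cell types moved beside these results, and their part in them was not tested. Of 17 neutrophil markers 13 were higher and none lower. The 13 became 8 over the livers without Gm47283, and the summed level of the list was 3340 to 4740 CPM in v1 livers, against 1800 to 2630 CPM in v2 livers. Cxcr2, the receptor of Cxcl1 and Cxcl2, had 12.4, 12.9 and 10.4 CPM in v1 livers, against 2.83, 3.79, 4.47 and 4.96 CPM in v2 livers (log2 fold change 1.59, SE 0.2, adjusted p = 0.00146), and the granule enzyme Mpo had 307, 306 and 365 CPM in v1 livers, against 215, 238, 255 and 270 CPM in v2 livers (log2 fold change 0.44, SE 0.111, adjusted p = 0.0223). Of 17 Kupffer cell and monocyte markers 7 were higher and 3 lower. Itgam, found on monocytes and neutrophils, had 49.4, 56.6 and 56.1 CPM in v1 livers, against 20.3, 23.7, 22.4 and 27.9 CPM in v2 livers (log2 fold change 1.22, SE 0.118, adjusted p = 0.000548). Clec4f, specific to Kupffer cells, was lower at 78.9, 90.2 and 84.3 CPM in v1 livers, against 138, 170, 161 and 166 CPM in v2 livers (log2 fold change -0.89, SE 0.105, adjusted p = 0.00118), as were Cd163 (-1.49) and Vsig4 (-0.73), while Cd5l, also of Kupffer cells, was higher (0.37). The 7 became 4 without v1 replicate 1 and 3 over the livers without Gm47283. Of 12 tested (14 listed) T and NK cell markers 6 were higher, and the list summed to 96 to 113 CPM in v1 livers, against 35.5 to 56.8 CPM in v2 livers. Gzmb, the cytotoxic granule protease, had 26, 36.8 and 29.9 CPM in v1 livers, against 6.29, 8.36, 10.4 and 7.44 CPM in v2 livers (log2 fold change 1.95, SE 0.183, adjusted p = 0.000539). The other lymphocyte genes Gzma, Prf1 and Ncr1 had log2 fold changes of 1.01, 1.58 and 1.11. The 6 became 3 without v1 replicate 1, v1 replicate 3 or v2 replicate 3, 2 without v1 replicate 2, v2 replicate 1 or v2 replicate 4 and 2 over the livers without Gm47283.

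Of 15 stellate cell and fibroblast markers 5 were higher and 1 lower, and the 5 became 3 without v1 replicate 1, v1 replicate 2, v2 replicate 1 or v2 replicate 3 and 3 over the livers without Gm47283, while the 1 lower member became 0 without v1 replicate 1 and 2 without v2 replicate 2. Timp1 is the member with the largest difference, and the collagens Col1a1 and Col3a1 had log2 fold changes of 0.45 and 0.49 and did not pass. Of 8 tested (9 listed) cholangiocyte markers Sox9 and Spp1, both also made by injured hepatocytes, were higher (2.62 and 1.69), and 1 was lower, which it was not without v1 replicate 1 or 2 or any single v2 liver, while Krt19, a defining keratin of bile ducts, had 6.62, 9.38 and 11.1 CPM in v1 livers, against 7.89, 25.1, 5.94 and 6.6 CPM in v2 livers (log2 fold change -0.30, adjusted p = 0.693). Lyve1 and Fcgr2b were the only 2 of 15 sinusoidal endothelial markers that passed, both higher, beside 12.1% higher among all genes. Over the livers without Gm47283, 1 passed. None of 10 B cell and 10 megakaryocyte markers passed, and 1 of 16 tested (18 listed) erythroid markers did (Epor, log2 fold change -0.41, adjusted p = 0.0221), which did not pass without v1 replicate 2 or v2 replicate 4 or over the livers without Gm47283.

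Of 5 neuronal markers tested (10 listed), Tubb3, a neuronal tubulin, was higher at 2.06, 4.77 and 1.7 CPM in v1 livers, against 0.213, 0.427, 0.684 and 0.347 CPM in v2 livers (log2 fold change 2.77, SE 0.492, adjusted p = 0.00541), and did not pass over the livers without Gm47283. The list summed to 6.81 to 9.34 CPM in v1 livers, against 6.52 to 7.49 CPM in v2 livers. Of 25 miR-122 targets, 5 were higher and 3 lower in v1 than in v2 livers, beside 12.1% and 11.3% of all genes. Their median was 0.17. Aldoa, a glycolytic enzyme and classical target, had 247, 296 and 283 CPM in v1 livers, against 189, 168, 213 and 144 CPM in v2 livers (log2 fold change 0.65, SE 0.139, adjusted p = 0.0115), and Slc7a1, an arginine transporter and another classical target, had 48.3, 53.5 and 43.4 CPM in v1 livers, against 48.8, 36.1, 39.9 and 36.3 CPM in v2 livers (log2 fold change 0.29, adjusted p = 0.134). Klf6, an immediate-early gene too, had the largest difference among them (log2 fold change 1.98, adjusted p = 0.000261). The 5 became 3 over the livers without Gm47283, and the 3 became 1 without v1 replicate 1 and 1 over the livers without Gm47283. Of 27 lysosomal genes, 2 were higher and none was lower, beside 12.1% and 11.3% of all genes. The protease Ctss was among the higher ones (log2 fold change 0.74, adjusted p = 0.00253). By limma on log2(TPM + 1), whose all-gene median was 0.173, 11 lysosomal genes were higher, and of the miR-122 targets 9 were higher and 1 lower.

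The largest single differences included genes outside these lists. Gm8818 (ENSMUSG00000079138.3, chromosome 1, 153305432 to 153306478 in mm10), a processed pseudogene, had 4.89, 3.34 and 4.18 CPM in v1 livers, against 0, 0, 0 and 0 CPM in v2 livers, at least 103-fold higher. It shares 45.8% of its 31-base words with other genes, mostly 4930453N24Rik, which had 22.5, 27 and 21.6 CPM in v1 livers, against 22, 24.9, 17.4 and 20.2 CPM in v2 livers and was not called, so its count is uncertain. Fgf23, a phosphate-regulating hormone normally made in bone, had 8.1, 18.7 and 3.86 CPM in v1 livers, against 0.0533, 0, 0.0526 and 0.0496 CPM in v2 livers, a ratio of counts by depth of 243 (exact 95% counting interval 82.6 to 1180). Ch25h, which makes the antiviral oxysterol 25-hydroxycholesterol, had 4.12, 17.1 and 1.87 CPM in v1 livers, against 0, 0, 0.0526 and 0.0993 CPM in v2 livers, a ratio of 181 (exact 95% counting interval 61.5 to 880). In both genes the lowest v1 liver was replicate 3. Nos2, the inducible nitric oxide synthase, had 2.44, 20.6 and 1.1 CPM in v1 livers, against 0, 0, 0 and 0.0993 CPM in v2 livers, a ratio of 281 (exact 95% counting interval 77.4 to 2330). Ptgs2, the inducible cyclooxygenase, had 1.49, 8.25 and 0.609 CPM in v1 livers, against 0, 0, 0.105 and 0 CPM in v2 livers, a ratio of 121 (exact 95% counting interval 33 to 1000). Acod1, which makes itaconate in macrophages, had 7.48, 65.5 and 4.1 CPM in v1 livers, against 0, 0.244, 0.368 and 0.298 CPM in v2 livers (log2 fold change 6.81, SE 1.17, adjusted p = 0.00466). Among abundant genes, Clu, a secreted chaperone, Plin2, the coat protein of lipid droplets, and the class I antigens H2-D1 and H2-K1 had log2 fold changes of 1.20, 1.04, 1.18 and 1.04, and the last 2 share 26.9% and 22.8% of their words with other genes.

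On the lower side, Keg1, an acyltransferase-like gene of kidney and liver, had 1.2, 0.639 and 3.86 CPM in v1 livers, against 14.7, 22, 15.3 and 14 CPM in v2 livers (log2 fold change -3.06, SE 0.471, adjusted p = 0.0031). Fabp3, a fatty acid-binding protein of muscle, had 0.192, 0.147 and 0 CPM in v1 livers, against 0.8, 1.47, 25 and 0.496 CPM in v2 livers (log2 fold change -5.92, SE 1.81, adjusted p = 0.0421), with v2 replicate 3 far above the other v2 livers and 50.1% of its 31-base words shared with other genes. The chemokine Cxcl12, made by stromal and endothelial cells, had 71.6, 72.6 and 106 CPM in v1 livers, against 243, 226, 205 and 227 CPM in v2 livers (log2 fold change -1.41, SE 0.146, adjusted p = 0.000701). Adh1, alcohol dehydrogenase, had 91.9, 95.6 and 155 CPM in v1 livers, against 306, 409, 258 and 266 CPM in v2 livers (log2 fold change -1.42, SE 0.219, adjusted p = 0.00316). Ndrg2, a gene of differentiated tissue, and Acsl1, which activates long-chain fatty acids, had log2 fold changes of -1.42 and -1.37. Gm15622, an antisense gene across from Bhmt, had 0.0479, 0 and 0.0406 CPM in v1 livers, against 1.65, 1.22, 0.316 and 1.34 CPM in v2 livers, a ratio of counts by depth of 0.0269 (exact 95% counting interval 0.0032 to 0.1). Gm44170 and Gm28035 also ranked among the largest, but 95% and 94.9% of their words lie in other genes (Sec61a1 and Lrrc8a mostly), so their counts are uncertain. Of 259 antisense genes tested 28 were called, and 27 of them were lower in v1 livers, beside 7.06% called and 2.92% lower among all genes. The library kit did not keep the strand, so reads of an antisense gene and of the gene across from it cannot be told apart. Of the 25 lower ones with a tested protein-coding gene on the other strand, that gene was itself below 0 in 17 and lower by adjusted p in 11.

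Far fewer genes separated v2 from AAV9.empty livers. Of 14558 genes tested, 86 passed both thresholds in v2 against AAV9.empty (0.591%), 67 higher (0.46%) and 19 lower (0.131%). Without AAV9.empty replicate 2 the count was 54, and the lower genes were 9 without that liver and 10 to 12 without AAV9.empty replicate 1, v2 replicate 1 or AAV9.empty replicate 3. Among the higher genes were some of the p53 targets above, with Cdkn1a at 2.47 and Phlda3 at 3.17 on the log2 scale, but not Pmaip1. The cytokines Tnf, Il1a and Ccl2 differed by 0.92, 0.26 and 0.45 on the log2 scale, with adjusted p of 0.231, 0.591 and 0.529. Of the 15 cytokines and chemokines tested there, 1 (Lif) was higher and 2 were lower, Cxcl10 (log2 fold change -0.92, adjusted p = 0.0281) and Il18 (log2 fold change -0.58, adjusted p = 0.0374). Both comparisons use the 4 v2 livers, so no overlap between them is given.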

How the data were processed

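The authors sequenced liver RNA with a kit that does not keep the strand, trimmed reads with Trimmomatic and used STAR and RSEM on mm10, per the labels and the submitters' processing notes (versions and annotation release not given in the sources used here). The deposited expected counts (estimated reads per gene, 5.69% not whole) were rounded, and the deposited TPM values served alternatives only. Libraries of the compared groups held 17164502 to 22769658 counts, so that depth limits mainly genes of few counts. Gene names and positions came from GENCODE IDs of GRCm38, and promoter sequences from RefSeq GRCm38.p6.

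Groups came from the treatment labels. The 3 v1 and 4 v2 livers were fitted by edgeR 4.0.16 in R 4.3.3 (TMM, filterByExpr with a minimum of 10, quasi-likelihood F-test, Benjamini-Hochberg adjustment), and v2 against AAV9.empty likewise. Calls needed an adjusted p within 0.05 and a 2-fold difference, and a list member at the adjusted p alone. SE is the log2 fold change over the root of F. Where a group was at 0, a floor of 3 counts over the group was used. Intervals of count ratios cover counting error only. Named genes were St3gal5, Tnf, Il1a, Ccl2 and Ccl3, the 12 largest and 10 most abundant called genes per direction, and the first 4 by adjusted p of each list. The 12 largest needed a mean CPM of at least 1 in the higher group and v1 and v2 livers that did not overlap. For those genes the lack of overlap was fixed by the choice. Further members were named beside their list's count, and Y-linked genes as a label check. Others were named after their values were seen. Members and lists were chosen with earlier results of these data known. The fit was tested on simulated data with 200 changed genes. Alternatives were DESeq2 1.42.0, RLE size factors, other filters, all 22 livers, robust dispersion, limma 3.58.1 on TPM, a replicate block, an erythroid covariate and left-out livers. Same-numbered v1 and v2 livers did not deviate together. The transcript of the human transgene was not analysed here, and a few list members counted above are not reported by name.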

Additional observations from a re-analysis of the deposited data

Results flagged for a closer look

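Among 49 genes looked at in the 4 v2 livers, 6 had a liver far from the other 3 by Dixon's ratio, and chance flags about 1 in 20 groups. Cyp2e1 was low in replicate 1 at 827 CPM, while the others lay between 971 and 995 CPM. Keg1 was high in replicate 2 at 22 CPM, with the others at 14 to 15.3 CPM. Fabp3 was high in replicate 3 at 25 CPM, with the others at 0.496 to 1.47 CPM. In 3 genes a v2 liver stood apart by very few counts. Fgf23 was at 0 in replicate 2 and at 0.0496 to 0.0533 CPM in the others. Nos2 was at 0.0993 CPM in replicate 4 and at 0 in the others. Ptgs2 was at 0.105 CPM in replicate 3 and at 0 in the others.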

How the results depend on the processing

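Over all alternatives, 3319 values of named genes kept their direction and their side of the threshold, 250 kept only the direction, and none reversed. Between v1 and v2 livers, the 1052 genes (616 higher, 436 lower) became 619 with limma on log2(TPM + 1), 151 of them lower, and 534 without a TPM filter, 108 lower. With log2(TPM + 0.1) 218 were lower. Over the livers without Gm47283 the count was 469 (306 higher, 163 lower), and without a minimum fold it was 3486 (1799 higher, 1687 lower). Leaving out 1 liver gave 717 to 1358 genes, 418 to 776 higher and 245 to 582 lower. DESeq2 gave 1139, RLE size factors 1050, all 22 livers 1236 and the erythroid covariate 1053. With limma on log2(TPM + 1) the median of all genes shifted to 0.173.

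With the replicate number as a block, 675 genes passed, 255 of them lower, and 633 of the 1052 calls remained. Correlations of same-numbered deviations were 0.155, 0.022 and -0.174, and not every liver correlated best with its own number, so the livers share only a number.

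Between v2 and AAV9.empty livers, the 86 genes (67 higher, 19 lower) became 51 with limma on log2(TPM + 1), 37 of them higher, and 40 without a TPM filter, 32 higher and 8 lower. With log2(TPM + 0.1) 43 were higher. Without the count filter 34 were lower, and with all 22 livers 30. Without a minimum fold 783 passed (419 higher, 364 lower). Leaving out 1 liver gave 54 to 97 genes, 45 to 71 higher and 9 to 26 lower.

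Each comparison rests on 3 or 4 livers, v1 livers differ widely among themselves, and genes of few counts in v2 livers have wide intervals.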
